A study of Mus musculus with 9 samples.

Results

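The BCL2 family genes described here are 10 genes of the mitochondrial apoptosis pathway, chosen by name: the anti-apoptotic Bcl2, Bcl2l1, Bcl2l2 and Mcl1, the effectors Bax and Bak1, and the BH3-only genes Bad, Bid, Bbc3 and Bcl2l11. All 10 were found among the 24505 genes of the count table, and all 10 passed the filter on low counts in each of 3 comparisons. Poly(A) RNA was sequenced from EGFP+ germ cells of Uchl1-eGfp mice, in 9 libraries: 3 of intermediate and type B (In/B) spermatogonia at postnatal day (P) 17, and, at P19, 3 of RA-sufficient and 3 of RA-deficient preleptotene (PL) spermatocytes. RA is retinoic acid. In all 3 groups spermatogenesis was synchronized in the same way: pups received WIN 18,446, which blocks the synthesis of RA, at 100 µg/g of body weight each day from P1, and a single dose of RA on P11. The last day of this first WIN 18,446 treatment is P10 in the study's text and P11 in the deposited records. In RA-sufficient mice WIN 18,446 was then stopped, and in RA-deficient mice it was continued, so that RA-deficient cells had also seen the exogenous RA of P11. According to the study's methods, In/B spermatogonia came from RA-sufficient mice.

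The model has limits that bear on every value. EGFP was driven by the Uchl1 promoter, which the study used to sort both spermatogonia and PL spermatocytes and which is not specific to a single stage. Testes of several pups were pooled for a cell suspension, and the strain was outcrossed to outbred CD-1 mice. In/B and PL cells were taken at different ages, so stage and age cannot be told apart.

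Proteins of the BCL2 family decide whether the outer membrane of the mitochondrion is opened, a step that releases cytochrome c and activates caspases. BAX and BAK form the pores. BCL2, BCL-XL (Bcl2l1), BCL-W (Bcl2l2) and MCL1 hold them in check, and BH3-only proteins such as BIM (Bcl2l11), PUMA (Bbc3), BID and BAD engage these guardians or the effectors through a short helix, the BH3 domain. In the testis the family is best known for the early wave of germ cell death, which needs Bax, and for Bcl2l2, whose loss in mice ends spermatogenesis.

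The BH3 domain is what the 3 classes have in common, and its coding sequence is shown for all 10 members for that reason. It was located by translating coding transcripts of GENCODE M1 and searching for leucine, any 3 residues, glycine, alanine or serine, and aspartate. Each of 9 members had a single match. None of the 4 coding transcripts of Bcl2l2 had one, and 3 of the 4 had a single match once methionine was allowed in place of leucine, a form chosen after the first search. Each window is 42 bases long, written 5′ to 3′ on the strand of the gene, with the 6 codons of the match in capitals. Coordinates are those of build NCBIM37 (mm9), and each window lies inside 1 coding exon.
Bcl2, exon 1, chr1:108609149-108609190, minus strand: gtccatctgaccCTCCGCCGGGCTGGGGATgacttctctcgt
Bcl2l1, exon 2, chr2:152655430-152655471, minus strand: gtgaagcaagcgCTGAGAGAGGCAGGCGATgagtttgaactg
Bcl2l2, exon 3, chr14:55503342-55503383, plus strand: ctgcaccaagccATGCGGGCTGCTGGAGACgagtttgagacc
Mcl1, exon 2, chr3:95463347-95463388, plus strand: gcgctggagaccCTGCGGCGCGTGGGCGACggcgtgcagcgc
Bax, exon 3, chr7:52721364-52721405, minus strand: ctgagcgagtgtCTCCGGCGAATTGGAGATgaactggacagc
Bak1, exon 4, chr17:27159473-27159514, minus strand: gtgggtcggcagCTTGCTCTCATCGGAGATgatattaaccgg
Bad, exon 3, chr19:7025270-7025311, plus strand: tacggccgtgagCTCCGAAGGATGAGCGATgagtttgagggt
Bid, exon 4, chr6:120847304-120847345, minus strand: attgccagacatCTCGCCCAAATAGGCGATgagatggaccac
Bbc3, exon 3, chr7:16899110-16899151, plus strand: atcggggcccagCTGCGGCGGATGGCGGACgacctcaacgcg
Bcl2l11, exon 3, chr2:127972874-127972915, plus strand: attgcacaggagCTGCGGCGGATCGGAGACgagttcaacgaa

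Between these windows the largest number of identical bases was 28 of 42 (66.7%), for Bbc3 and Bcl2l11. The anti-apoptotic pair Bcl2l1 and Bcl2l2 shared 26 of 42 (61.9%). The smallest number was 14 of 42 (33.3%), for Bcl2l2 and Bak1.

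The libraries held 12612959 to 27042274 counts, and 3 counts, used as the floor for a gene without reads, were worth 0.113 to 0.221 CPM (normalised read counts, scaled to library size after TMM). Genes with at least 1 count numbered 16758 to 18002 in In/B and 17541 to 18434 in RA-sufficient PL. They numbered 14769 to 15327 in RA-deficient PL, whose libraries held 25048240 to 27042274 counts. No replicate pair agreed within sampling noise. In each group 1 library stood apart by the chi-square per degree of freedom between replicates. For RA-deficient replicate 3 it was 108 and 107 against its partners and 19.8 between these, for RA-sufficient replicate 1 it was 42.6 and 59.4 against 10.7, and for In/B replicate 1 it was 40.3 and 35.8 against 6.15. The sum of 5 differentiating spermatogonia markers (Kit, Sohlh1, Sohlh2, Dmrt1 and Dmrtb1) was 315 CPM in RA-deficient replicate 3 and 1378 and 1349 CPM in replicates 1 and 2, against 1289 to 1669 CPM in In/B and 226 to 333 CPM in RA-sufficient PL. The 5 markers did not all move alike. Dmrtb1 alone had a lower mean in RA-deficient than in RA-sufficient PL (80.1 against 104 CPM, and 325 CPM in In/B). Sohlh2 was at 103 to 203 CPM in RA-deficient PL, above In/B (79.4 to 79.5 CPM). For 6 undifferentiated spermatogonia markers the sum was 205 to 354 CPM in In/B, 93.2 to 152 CPM in RA-sufficient PL and 194 to 308 CPM in RA-deficient PL. Zbtb16 was its largest part (means 216, 69.0 and 180 CPM), and Nanos3 and Upp1 were also lowest in RA-sufficient PL. Gfra1 (means 10.5, 34.6 and 21.1 CPM) and Id4 (5.50, 15.8 and 13.0 CPM) were highest there, and Nanos2 was at means of 1.00 to 1.39 CPM. For 5 RA targets the sum was 414, 413 and 96.4 CPM in RA-deficient PL and 626, 256 and 245 CPM in RA-sufficient PL. Of these, Stra8 had a higher mean in RA-deficient PL (275 against 230 CPM). Rec8, Cyp26a1, Rarb and Stra6 had lower means there (Stra6: 7.71 against 97.0 CPM). Rarb rested on 2 against 10 counts over the group, and Rec8 overlapped (5.86 to 39.5 against 30.0 to 45.3 CPM). Stra6 and Cyp26a1 were also low in In/B (means 2.12 and 0.225 CPM), as was the Sertoli cell marker sum given next. The part of Sertoli cells in these values was not tested. The sum of 9 Sertoli cell markers was 77.0 to 366 CPM in In/B, 2892 to 3833 CPM in RA-sufficient PL and 332 to 562 CPM in RA-deficient PL, and all 9 markers had counts in every group. Other cell types gave less: the sums for 6 round spermatid, 6 Leydig cell, 8 macrophage and blood and 5 endothelial markers were at most 38.6 CPM in any library, with Insl3 at 0 in In/B and RA-deficient PL and Hbb-b1 and Hba-a1 at 0 throughout. The sum of 11 peritubular and stromal markers was 79.3 to 151 CPM. The 4 germ cell markers summed to 4496 to 5573 CPM in In/B, 2270 to 2646 CPM in RA-sufficient PL and 4185 to 5214 CPM in RA-deficient PL. In every RA-sufficient library this sum was below the Sertoli cell marker sum. Clu alone was at 1849 to 2519 CPM there, although each of the 9 Sertoli cell markers had its highest mean in this group. Uchl1 fell from a mean of 2820 CPM in In/B to 521 CPM. The means of Dazl, Ddx4 and Mael were 1161, 536 and 344 CPM in In/B and 1113, 413 and 435 CPM in RA-sufficient PL. These sums therefore do not compare the amounts of germ cell and Sertoli cell RNA. The stage was visible in 7 preleptotene and early prophase markers, which summed to 1159 to 2310 CPM in In/B and 4971 to 8240 CPM in PL.

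**Figure D1:**
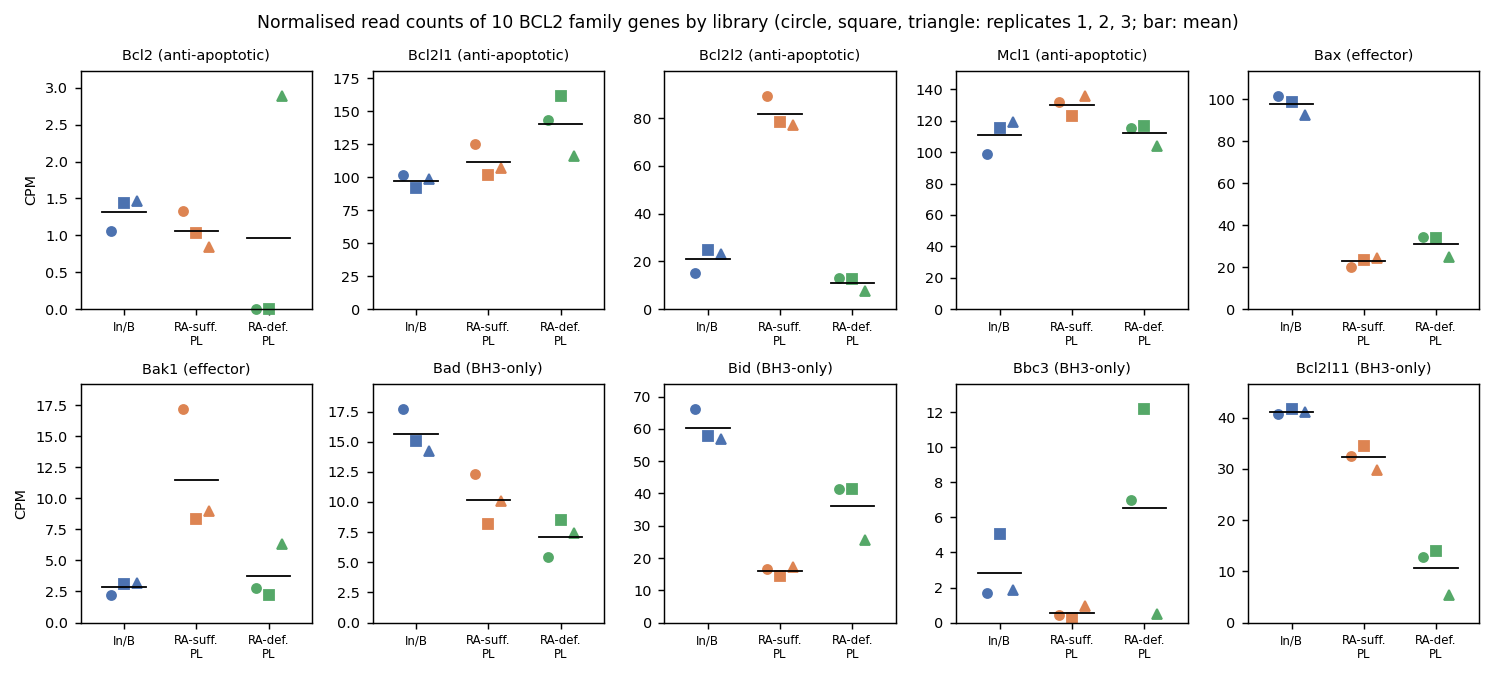
Normalised read counts (CPM, linear axes from 0) of the 10 members in 9 libraries, with groups on the horizontal axis, 1 point per library and a bar at each group mean. Bcl2l2 is highest in the 3 RA-sufficient PL libraries (77.1 to 89.1 CPM) and Bax in the 3 In/B libraries (92.8 to 102 CPM). Bcl2 (0 to 2.89 CPM) and Bbc3 (0.481 to 12.2 CPM) are widely spread in RA-deficient PL.

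Among the anti-apoptotic genes, Bcl2l2 had the largest difference between groups. Bcl2l2 (ENSMUSG00000089682.2, chr14:55502214-55507071, plus strand), which encodes BCL-W, was at 15.1, 25.0 and 22.9 CPM in In/B replicates 1, 2 and 3. In RA-sufficient PL it was at 89.1, 78.3 and 77.1 CPM, and in RA-deficient PL at 12.9, 12.6 and 7.48 CPM. The 3 groups did not overlap, and every RA-sufficient library was far above the other 6. The rise from In/B to RA-sufficient PL was 4.03-fold (log2 fold change 2.01, SE 0.20, adjusted p = 6.0e-05). RA-deficient PL was 7.43-fold below RA-sufficient PL (log2 fold change -2.89, SE 0.26, adjusted p = 0.0010), and its difference from In/B did not pass (-0.76, SE 0.32, adjusted p = 0.0975). Here and throughout, p-values come from the quasi-likelihood test of edgeR and were adjusted by Benjamini and Hochberg's method over all genes tested, and a gene passed below 0.05.

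Sertoli cells are the supporting cells of the tubule, and their marker sum moved with Bcl2l2 and with Bak1: it was highest in RA-sufficient PL, and within that group replicate 1 was highest in the marker sum (3833 CPM against 2892 and 2941), in Bcl2l2 and in Bak1. In RA-deficient PL replicate 3 had the highest marker sum (562 CPM), the highest Bak1 and the lowest Bcl2l2 of the 3 libraries. The part of these cells in the Bcl2l2 and Bak1 results was not tested. In bulk libraries, fewer cells of a type and less RNA per cell cannot be told apart. In GENCODE M1, Bcl2l2 also shares 594 exon bases (13.3% of its exons) with Gm20521, a gene on the same strand that runs on into its neighbour Pabpn1. Gm20521 is not among the counted genes under that name. For Pabpn1 itself the log2 fold change was 0.33 in RA-sufficient PL against In/B, -0.07 in RA-deficient PL against In/B and -0.51 between the PL groups.

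The region before the start of Bcl2l2 is shown because the PL groups differ in RA and AGGTCA is a half-site bound by RA receptors. Searched on both strands, AGGTCA was found in the 250 bases before a RefSeq start (build GRCm38.p6, different from that of the counts) for 2 of 10 members, Bcl2l1 and Bcl2l2, in 2 of the 16 windows of the members, and in 14.02% of 32851 such windows of all genes. In Bcl2l2 it stood on the strand of the gene, 184 bases before the start, in capitals here.
Bcl2l2, GRCm38.p6, chr14:54883175-54883424, plus strand: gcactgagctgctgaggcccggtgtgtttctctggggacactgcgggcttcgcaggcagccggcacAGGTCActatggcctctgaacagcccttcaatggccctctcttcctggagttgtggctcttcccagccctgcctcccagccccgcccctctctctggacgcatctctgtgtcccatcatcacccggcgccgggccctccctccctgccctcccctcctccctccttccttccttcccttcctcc

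Other motifs were searched on both strands in the same windows. GGGCGG (a GC box) was found for 8 of 10 members, in 11 of their 16 windows and in 32.7% of all windows. CCAAT was found for 3 members, in 4 of 16 windows and in 33.9% of all. CACGTG (an E-box) was found for Bax and Bbc3, in 2 of 16 windows and in 6.02% of all. TATAAA, present in 12.4% of all windows, and CNCCTCAG, present in 6.42%, were found for none of the members. These are matches of letters in a window and not measured sites.

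Bcl2l1 (ENSMUSG00000007659.11, chr2:152593052-152657464, minus strand), which encodes BCL-XL, was at 101, 91.9 and 98.3 CPM in In/B, 125, 102 and 107 CPM in RA-sufficient PL and 143, 161 and 116 CPM in RA-deficient PL. The In/B libraries lay below the 6 PL libraries, narrowly so for RA-sufficient replicate 2, and the PL groups overlapped through RA-deficient replicate 3. It was 1.62-fold higher in RA-deficient PL than in In/B (log2 fold change 0.69, SE 0.16, adjusted p = 0.0102), a call lost without In/B replicate 2 (0.62) or RA-deficient replicate 2 (0.55). The difference of RA-sufficient PL from In/B was 0.25 (adjusted p = 0.116), and that between the PL groups was 0.33, with a 95% interval from -0.07 to 0.73.

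Mcl1 (ENSMUSG00000038612.9, chr3:95462643-95467099, plus strand), a short-lived guardian that many cells need for survival, passed in no comparison. Its values were 99.0, 115 and 119 CPM in In/B, 132, 123 and 136 CPM in RA-sufficient PL and 115, 116 and 104 CPM in RA-deficient PL. RA-sufficient PL lay above both other groups without overlap, by 0.28 on the log2 scale against In/B (95% interval 0.02 to 0.55, adjusted p = 0.0608). The differences of RA-deficient PL were 0.18 from In/B and -0.22 from RA-sufficient PL.

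Bcl2 (ENSMUSG00000057329.6, chr1:108434755-108610851, minus strand), the founding member of the family, was close to the limit of detection. It had 19, 38 and 26 counts in In/B (1.06, 1.44 and 1.47 CPM) and 18, 17 and 19 counts in RA-sufficient PL (1.32, 1.03 and 0.838 CPM). In RA-deficient PL it had 0, 0 and 66 counts, so that the highest Bcl2 value of all 9 libraries, 2.89 CPM, and both libraries without a read were in 1 group. A count of 0 in RA-deficient replicates 1 and 2 allows up to 0.120 and 0.119 CPM, by counting error only. The RA-deficient libraries also had the fewest genes with a count, and the part of this in the zeros was not tested. Bcl2 passed in no comparison, and the interval of the difference between the PL groups ran from -4.43 to 4.10 on the log2 scale. An antisense transcript, D630008O14Rik, shares 558 bases with its exons in GENCODE M1 but is not among the counted genes under that name.

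The effectors moved in opposite directions from In/B to RA-sufficient PL, Bax downwards and Bak1 upwards. Bax (ENSMUSG00000003873.9, chr7:52717065-52722268, minus strand), the pore former required for the early germ cell death wave, was at 102, 98.9 and 92.8 CPM in In/B, at 20.2, 23.6 and 24.5 CPM in RA-sufficient PL and at 34.4, 33.8 and 24.9 CPM in RA-deficient PL. In/B lay far above all PL libraries, and the PL groups did not overlap, although RA-deficient replicate 3 was only just above RA-sufficient replicate 3. Bax was 4.12-fold lower in RA-sufficient PL than in In/B (log2 fold change -2.04, SE 0.14, adjusted p = 1.5e-05) and 2.81-fold lower in RA-deficient PL (-1.49, SE 0.18, adjusted p = 5.8e-04). The difference between the PL groups, 0.44, did not pass (95% interval -0.07 to 0.95, adjusted p = 0.183). Its neighbour Ftl1, 1810 bases away on the same strand, fell by 1.03 on the log2 scale in RA-sufficient PL against In/B.

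Bak1 (ENSMUSG00000057789.6, chr17:27156755-27165954, minus strand), the other pore former, was at 2.18, 3.10 and 3.22 CPM in In/B, 17.1, 8.37 and 8.999 CPM in RA-sufficient PL and 2.80, 2.18 and 6.34 CPM in RA-deficient PL. RA-sufficient PL lay above both other groups, with replicate 1 well above its 2 partners. The rise from In/B to RA-sufficient PL was 4.2-fold (log2 fold change 2.07, SE 0.37, adjusted p = 0.0012). RA-deficient PL was 3.09-fold below RA-sufficient PL, a difference that did not pass (-1.63, SE 0.54, adjusted p = 0.0685). Against In/B it was 0.58 (SE 0.57, adjusted p = 0.481).

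Bak1 shares 357 exon bases (14.8% of its exons) with Ggnbp1, a gene on the opposite strand, and the study does not say whether strand was used in counting. Ggnbp1 had 129, 382 and 251 counts in In/B, 1669, 923 and 1163 in RA-sufficient PL and 121, 139 and 692 in RA-deficient PL. Its order over the libraries was similar to that of Bak1, with RA-sufficient replicate 1 highest of all and RA-deficient replicate 3 above its partners. Its log2 fold change was 2.74 in RA-sufficient PL against In/B and -2.53 between the PL groups (adjusted p = 0.0534). Without knowledge of strand, reads of Bak1 and Ggnbp1 in the shared bases cannot be told apart.

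**Figure D2:**
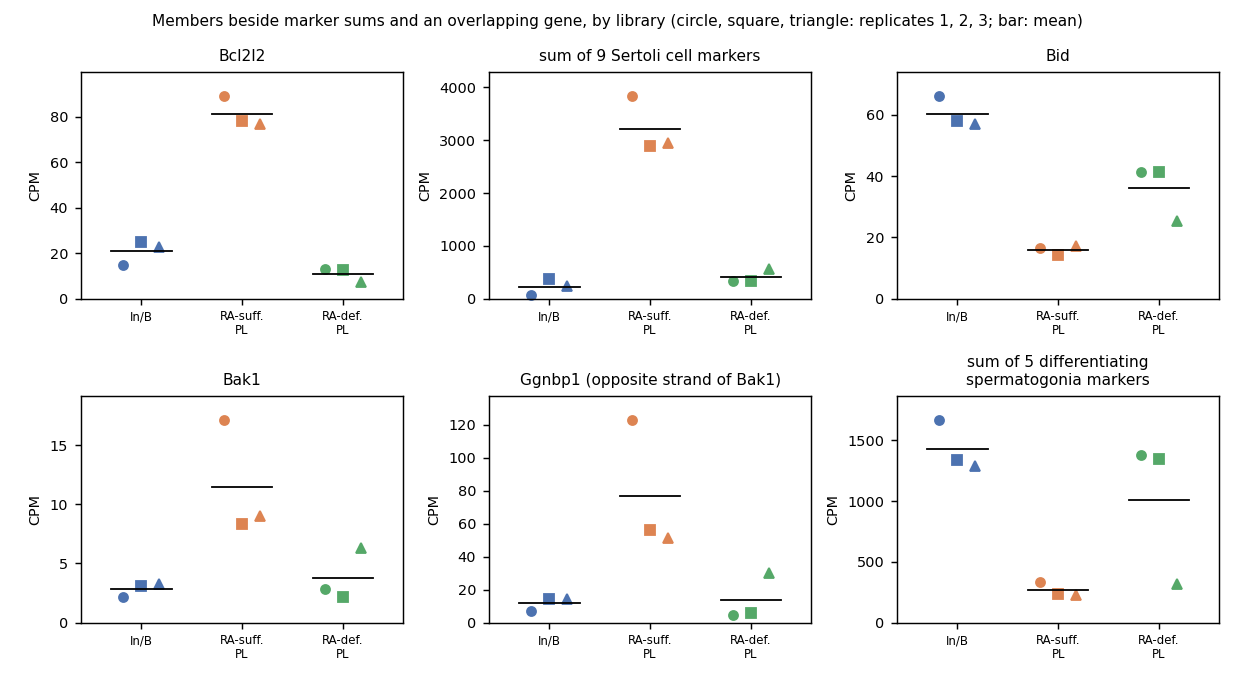
Normalised read counts (CPM, linear axes from 0) by library for Bcl2l2, Bak1 and Bid beside the sum of 9 Sertoli cell markers, Ggnbp1 and the sum of 5 differentiating spermatogonia markers, with a bar at each group mean. Bcl2l2, Bak1, Ggnbp1 and the Sertoli sum are all highest in RA-sufficient PL, and RA-deficient replicate 3 (triangle) lies apart from replicates 1 and 2 in Bid, Bak1, Ggnbp1 and the differentiating spermatogonia sum.

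In the comparisons with In/B, Bid and Bbc3 passed as lower in RA-sufficient PL and Bcl2l11 and Bad as lower in RA-deficient PL, and no BH3-only gene passed as higher. Bid (ENSMUSG00000004446.6, chr6:120841948-120866871, minus strand), which links death receptors to the mitochondrion once it is cleaved, was at 66.0, 57.8 and 56.9 CPM in In/B, 16.5, 14.4 and 17.1 CPM in RA-sufficient PL and 41.3, 41.3 and 25.5 CPM in RA-deficient PL. The 3 groups did not overlap, and RA-deficient replicate 3 lay between its partners and the RA-sufficient libraries. In the differentiating spermatogonia markers, too, replicate 3 was below its partners. Bid was 3.63-fold lower in RA-sufficient PL than in In/B (log2 fold change -1.86, SE 0.16, adjusted p = 3.4e-05) and 2.25-fold higher in RA-deficient than in RA-sufficient PL (1.17, SE 0.26, adjusted p = 0.0198). Its difference between RA-deficient PL and In/B was -0.57 (adjusted p = 0.0815). The call between the PL groups was lost without any 1 of the RA-sufficient libraries (1.09 to 1.22) and without RA-deficient replicate 1 (1.07) or 2 (1.08). According to the study, spermatogonia were sorted as bright and PL spermatocytes as dim for EGFP. Uchl1, whose promoter drove EGFP, was at 2352 to 3657 CPM in In/B. It was at 425 to 613 CPM in RA-sufficient PL and 991 to 1885 CPM in RA-deficient PL. The part of differentiating spermatogonia in this result was not tested. Bid shares 628 exon bases (17.7%) with Bcl2l13 on the opposite strand, whose log2 fold changes in the same comparisons were -0.82, 0.44 and -0.27.

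Bcl2l11 (ENSMUSG00000027381.10, chr2:127951774-127988283, plus strand), which encodes BIM, was at 40.8, 41.6 and 41.1 CPM in In/B, 32.5, 34.5 and 29.8 CPM in RA-sufficient PL and 12.9, 13.9 and 5.33 CPM in RA-deficient PL. The groups did not overlap, and the RA-deficient libraries were lowest. Bcl2l11 was 3.42-fold lower in RA-deficient PL than in In/B (log2 fold change -1.77, SE 0.35, adjusted p = 0.0061) and 3.02-fold lower than in RA-sufficient PL (-1.59, SE 0.38, adjusted p = 0.0240), the second call being lost without any 1 of the RA-sufficient libraries (-1.56 to -1.67). From In/B to RA-sufficient PL the difference was -0.30 (adjusted p = 0.106).

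Bbc3 (ENSMUSG00000002083.6, chr7:16894965-16903554, plus strand), which encodes PUMA, a target of p53, had few counts and a wide spread. It was at 1.68, 5.03 and 1.87 CPM in In/B, at 0.442, 0.243 and 0.970 CPM in RA-sufficient PL, from 6, 4 and 22 counts, and at 7.00, 12.2 and 0.481 CPM in RA-deficient PL. RA-deficient replicates 1 and 2 were the highest of all 9 libraries, and replicate 3 fell in the range of RA-sufficient PL. Bbc3 was 4.80-fold lower in RA-sufficient PL than in In/B (log2 fold change -2.26, SE 0.66, adjusted p = 0.0144). This call was lost without In/B replicate 2 (-1.61) and without RA-sufficient replicate 2 (-1.92). Against In/B, RA-deficient PL differed by 1.38 with an SE of 0.97 (adjusted p = 0.317). Between the PL groups the difference was 3.54 with an SE of 1.13 (adjusted p = 0.0609), and without RA-deficient replicate 3 it was 4.07 and passed (adjusted p = 0.0023).

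Bad (ENSMUSG00000024959.7, chr19:7016351-7026388, plus strand), whose product is held inactive by survival kinases, was at 17.7, 15.1 and 14.2 CPM in In/B, 12.3, 8.18 and 10.1 CPM in RA-sufficient PL and 5.40, 8.48 and 7.43 CPM in RA-deficient PL. In/B lay above both PL groups, which overlapped. Bad was 1.96-fold lower in RA-deficient PL than in In/B (log2 fold change -0.97, SE 0.30, adjusted p = 0.0354), and this call was lost without any 1 of the In/B libraries or without RA-deficient replicate 1. Its other differences were -0.57 in RA-sufficient PL against In/B (adjusted p = 0.0658) and -0.53 between the PL groups (adjusted p = 0.304). It shares 517 exon bases (25.8%) with Gpr137 on the opposite strand, which passed in none of the 3 comparisons.

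**Figure D3:**
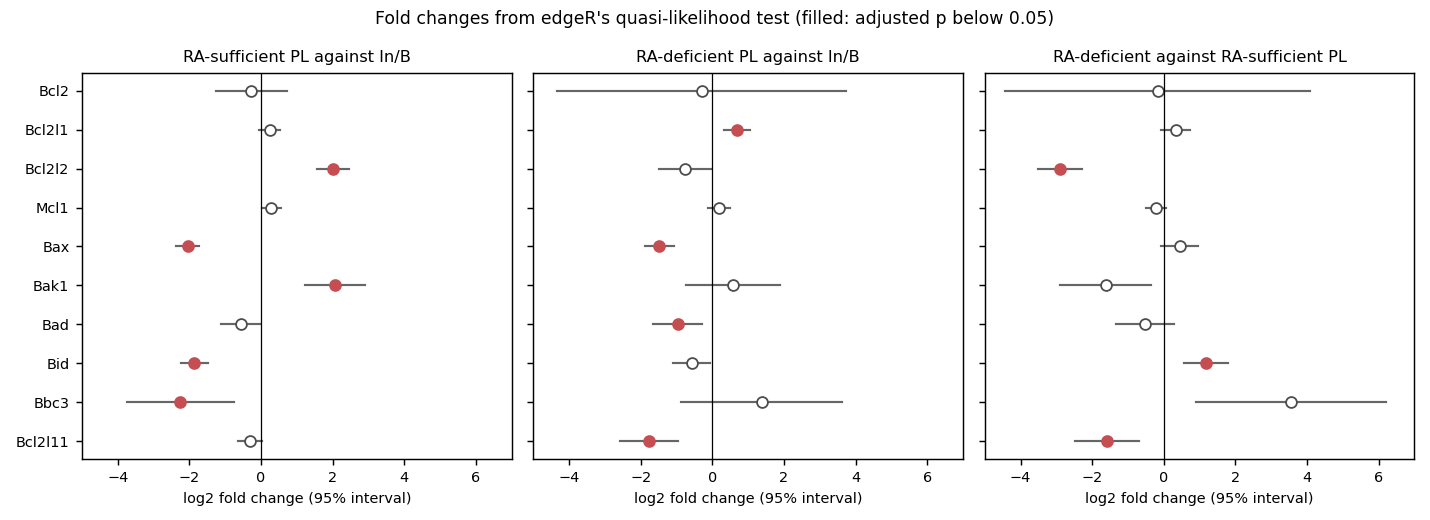
Log2 fold change of each member with its 95% interval in the 3 comparisons, from edgeR, with filled points for an adjusted p below 0.05. Filled points number 5, 4 and 3 from left to right, and Bcl2l2 passes upwards on the left (2.01) and downwards on the right (-2.89).

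The 3 comparisons ask which members differ from In/B at the start of meiosis with RA, which do so without RA, and which differ between PL spermatocytes with and without RA. Against In/B, RA-sufficient PL had 2 of 10 members higher (Bcl2l2 and Bak1) and 3 lower (Bax, Bid and Bbc3), and all 5 changed by over 2-fold. Over all 15001 genes tested, 33.8% were higher and 31.2% lower, and 45.4% passed with over 2-fold. The median log2 fold change was -0.28 for the members and 0.04 for all genes, and the median size without sign was 1.21 against 0.96. The ranges of the groups did not overlap for 9 of 10 members and for 71.5% of all genes tested.

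In RA-deficient PL against In/B, 1 of 10 members was higher (Bcl2l1) and 3 were lower (Bax, Bcl2l11 and Bad), and Bax and Bcl2l11 changed by over 2-fold. Of 14877 genes tested, 18.4% were higher, 18.3% lower, and 23.2% passed with over 2-fold. The median was -0.44 for the members and 0.00382 for all genes, the median size 0.73 for both. The ranges of the groups did not overlap for 6 of 10 members and for 54.6% of all genes tested. Scaling by library size alone moved the median of all genes to -0.31 and turned 2734 higher and 2725 lower calls into 1853 and 4097. Under that scaling Bcl2l1 lost its call (0.38), and Bcl2l2 (-1.07) and Bid (-0.89) gained one.

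In RA-deficient against RA-sufficient PL, 1 of 10 members was higher (Bid) and 2 were lower (Bcl2l2 and Bcl2l11), each by over 2-fold. Of 15352 genes tested, 11% were higher, 12.6% lower, and 15.5% passed with over 2-fold. The median was -0.19 for the members and -0.09 for all genes, the median size 0.85 against 0.62. The ranges of the PL groups did not overlap for 6 of 10 members and for 47.4% of all genes tested. Scaling by library size alone moved the median of all genes to -0.27 and gave 949 higher and 2458 lower calls in place of 1694 and 1935, and Bak1 then passed (-1.81, adjusted p = 0.0494). The count of 3 members rested on single libraries. Without RA-deficient replicate 3 it was 8: Bbc3, Bax and Bcl2l1 (log2 fold changes 4.07, 0.59 and 0.46) were higher beside Bid, and Bak1 (-2.19) and Bcl2, with both remaining libraries at 0, were lower beside Bcl2l2 and Bcl2l11. The count over all genes also rose, from 1694 higher and 1935 lower to 2804 higher and 3817 lower of 15799. Without any 1 of the RA-sufficient libraries the count of members was 1, Bcl2l2, and the counts over all genes fell too, to 638 to 969 higher and 907 to 1012 lower. The 2 comparisons with In/B share the In/B libraries, and those with RA-sufficient PL or RA-deficient PL share these libraries in turn, so the 3 counts are not independent. In each of the 3 comparisons the counts of members that passed in either direction lay within 2 genes of what the shares over all genes give for 10 genes, and they are no result about the family as a whole.

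Levels of different genes were compared per kilobase of exon (CPM per kb, over the union of exons in GENCODE M1). In In/B, Bax was the highest member at 73.0 ± 3.36 CPM per kb (SD, n = 3), above Mcl1 at 31.9 ± 3.09, Bcl2l1 at 20.5 ± 1.02 and Bid at 16.97 ± 1.42, with no overlap between neighbours down to Bad at 7.81 ± 0.889. Bcl2l11 (5.12 ± 0.0518) and Bcl2l2 (4.71 ± 1.17) overlapped, as did Bbc3 (1.42 ± 0.938) and Bak1 (1.18 ± 0.237), and Bcl2 was last at 0.184 ± 0.0315.

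In RA-sufficient PL the order per kilobase began with Mcl1 (37.3 ± 1.89 CPM per kb), followed without overlap by Bcl2l1 (23.5 ± 2.58) and then Bcl2l2 (18.3 ± 1.49), which overlapped with Bax (17.02 ± 1.68). Bad, Bak1, Bid and Bcl2l11 followed at means of 4.02 to 5.08 CPM per kb, and each overlapped with the next of these 4. Bbc3 (0.275 ± 0.187) and Bcl2 (0.148 ± 0.0341) were lowest and overlapped.

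In RA-deficient PL, Mcl1 (32.1 ± 2.01 CPM per kb), Bcl2l1 (29.6 ± 4.78) and Bax (23.2 ± 3.97) overlapped at the top. Bid (10.2 ± 2.57) stood alone between them and Bad (3.54 ± 0.781). Bad, Bbc3, Bcl2l2, Bak1 and Bcl2l11 each overlapped with the next, and Bcl2 was last. Bcl2l2 was thus number 3 in the order of RA-sufficient PL and number 7 in that of both other groups.

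**Figure D4:**
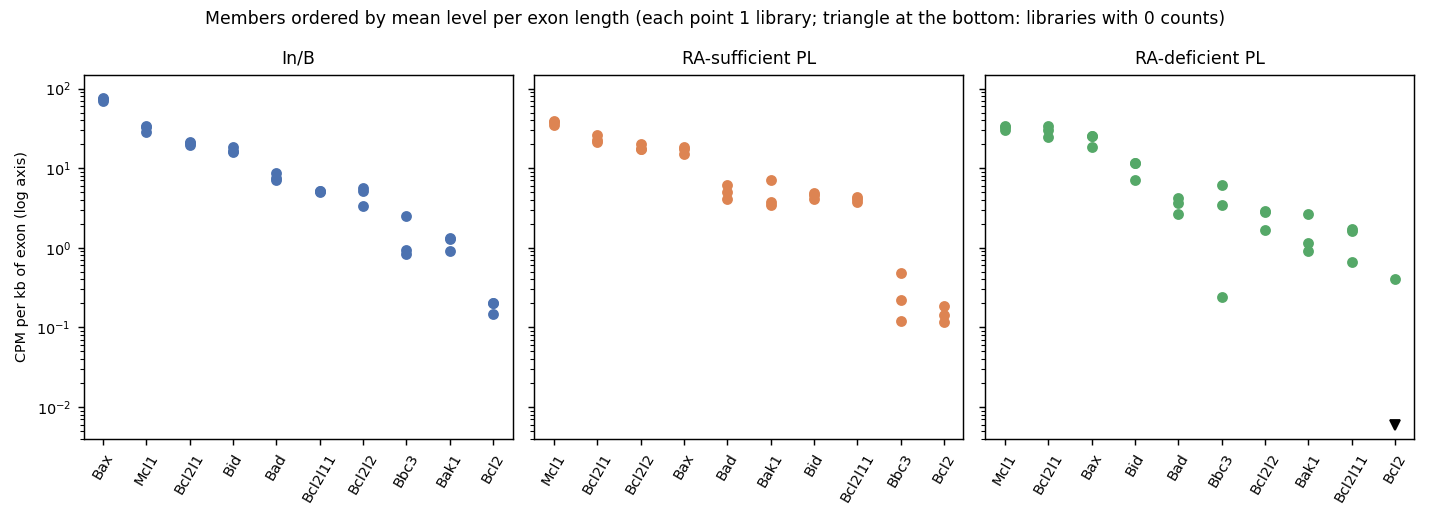
Level of each member per kilobase of exon (CPM per kb, log axis) in the 3 groups, with members ordered by their group mean and 1 point per library. Bax leads in In/B (mean 73.0) and Mcl1 in both PL groups (37.3 and 32.1), and the triangle marks the RA-deficient libraries with 0 counts of Bcl2.

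The classes were then summed per kilobase in each library and given as percent of the sum of the 10 members, as a description without a test. Anti-apoptotic members made up 32.6, 35.3 and 37.7% of the sum in In/B, 69.4, 68.8 and 68.6% in RA-sufficient PL and 58.9, 58.6 and 63.1% in RA-deficient PL. The effectors made up 44.1 to 47.0%, 18.3 to 19.6% and 21.8 to 23.9%, and the BH3-only genes 18.2 to 20.4%, 11.6 to 12.4% and 13.2 to 19.7%. The anti-apoptotic share was higher in all 6 PL libraries than in all In/B libraries, and within PL it was higher in the 3 RA-sufficient libraries. The family sum itself was 160 to 165 CPM per kb in In/B, 108 to 122 in RA-sufficient PL and 89.4 to 120 in RA-deficient PL. The largest single part of the sum was Bax in In/B (73.0 ± 3.36 CPM per kb) and Mcl1 in both PL groups. Without Bcl2l2, whose level, like the Sertoli cell marker sum, was highest in RA-sufficient PL, the anti-apoptotic share was 31.2 to 35.6% in In/B, 62.8 to 63.3% in RA-sufficient PL and 57.6 to 62.4% in RA-deficient PL, so that the PL groups were closer together and still did not overlap.

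**Figure D5:**
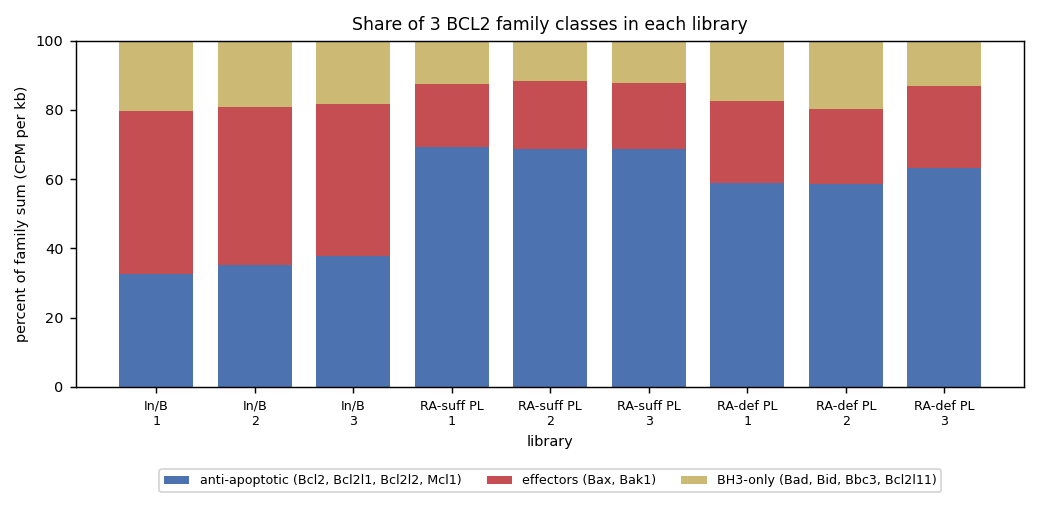
Percent of the family sum (CPM per kb, linear axis from 0 to 100) held by anti-apoptotic, effector and BH3-only members in each of the 9 libraries. The anti-apoptotic part is 32.6 to 37.7% in In/B, 68.6 to 69.4% in RA-sufficient PL and 58.6 to 63.1% in RA-deficient PL.

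The ratio of Bax to Bcl2, often used as an index of susceptibility to apoptosis, rested on a gene with few counts. On the log2 scale per kilobase it was 8.40 to 9.004 in In/B and 6.36 to 7.29 in RA-sufficient PL. In RA-deficient PL it was 5.53 in replicate 3. With Bcl2 at the floor of 3 counts it was at least 10.6 in both other libraries, by counting error only. The lowest and the highest ratios of the 9 libraries were thus in the same group.

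The other genes of the family were followed as a list of 16, of which 9, 9 and 10 were tested in the 3 comparisons. Against In/B, RA-sufficient PL had 6 of 9 lower and none higher, where 31.2% of all genes were lower and 33.8% higher: Bmf (log2 fold change -1.66), a BH3-only sensor of cell detachment, Bcl2l12 (-1.26), the mitophagy receptor genes Bnip3 (-1.13), Bnip3l (-0.78) and Bcl2l13 (-0.82), and Pmaip1 (-1.06), which encodes NOXA, a partner of MCL1. Bok, Bik and Hrk did not pass, with values of -1.02, 0.13 and 0.31. The list medians in the 3 comparisons were -1.02, -0.73 and -0.06. In RA-deficient PL against In/B, 2 of 9 were lower, Bmf (-1.45) and Bnip3l (-0.87), and none was higher, against 18.3% and 18.4% of all genes. The counts of the further lists are to be read against the same shares over all genes, which between the PL groups were 12.6% lower and 11% higher. Between the PL groups 0 of 10 passed by edgeR, 3 had an unadjusted p below 0.05, and DESeq2 called 4. The largest differences were -2.29 for Bcl2l14, -1.67 for Bik, 1.15 for Bnip3 and 1.11 for Pmaip1. Bok had 35, 43 and 0 counts in RA-deficient PL, which places replicate 3 apart from its partners in this gene too. Bcl2a1a and Bcl2a1c had 0 counts in all 9 libraries, Bcl2a1b, Bcl2a1d and Bcl2l10 at most 7, and Bcl2l15 at most 14.

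Downstream of the mitochondrion, the list of apoptosome genes, caspases and their substrates had 15 of 16 genes tested, with medians of -0.27, -1.02 and 0.00337. Against In/B, RA-sufficient PL had 3 higher, among them Casp8 (1.70), an initiator of the death receptor pathway, and 5 lower, among them Apaf1 (-1.79), the scaffold of the apoptosome. In RA-deficient PL against In/B, 2 were higher, among them Htra2 (1.43), and 7 were lower, among them Casp6 (-1.84) and the testis cytochrome c gene Cyct (-1.50). Casp9, the partner of APAF1, was lower in both (-0.75 and -0.60). Between the PL groups 1 gene was higher and 3 were lower in RA-deficient PL, among them Casp8 (-3.69) and Casp6 (-1.95).

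Upstream, the p53 axis had 15 of 16 genes tested in the comparisons with In/B, and its medians were -0.88, -0.47 and, between the PL groups, -0.43. In RA-sufficient PL 3 were higher, among them Sesn2 (1.96) and Zmat3 (1.73), and 9 were lower, among them Phlda3 (-4.51) and Eda2r, which had 64 to 98 counts in each In/B library and 1 count over all 3 RA-sufficient libraries. Of all genes, 33.8% were higher and 31.2% lower. In RA-deficient PL 1 was higher, Sesn2 (1.62), and 7 were lower, among them Phlda3 (-3.82) and Eda2r, with 11 counts over the 3 libraries. Trp53, the gene for p53, was lower in both (-1.21 and -1.69) and lower in RA-deficient than in RA-sufficient PL (-0.60). Of 14 genes tested between the PL groups, 1 was higher and 4 were lower, among them the cell cycle inhibitor Cdkn1a (-1.88) and Sesn1 (-1.20). Bbc3, a p53 target, had its highest values in replicates 1 and 2 of RA-deficient PL but not in replicate 3.

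The list of regulators of BCL2 family proteins had all 16 genes tested, with medians of 0.55, 0.26 and 0.00917. Against In/B, RA-sufficient PL had 8 higher, among them Usp9x (2.12), whose product removes ubiquitin from MCL1, and Vdac1 (1.80), and 5 lower, among them Foxo1 (-1.49), a transcription factor that can activate Bcl2l11, and Bag1 (-1.02), where 33.8% of all genes were higher and 31.2% lower. In RA-deficient PL against In/B, 6 were higher, among them Usp9x (2.71), and 1 was lower. Between the PL groups 4 were higher, among them Foxo1 (1.14) and Huwe1 (1.07), the gene of a ubiquitin ligase of MCL1, and 4 were lower, among them Vdac1 (-2.89) and Ddit3 (-1.12).

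The death receptor list had medians of 0.63, 0.13 and -0.96. Of 6 genes tested, 3 were higher in RA-sufficient PL than in In/B, among them Tnfrsf1a (3.03) and Cflar (3.01), which encodes the inhibitor FLIP, and 1, Tnfrsf10b, was lower (-3.13). In RA-deficient PL against In/B, Cflar (1.57) and Ripk1 (1.37) were higher and Tnfrsf10b (-1.84) and Fadd (-1.73) lower. Between the PL groups Tnfrsf1a (-2.40) and Cflar (-1.58) were lower and none was higher. The inhibitors of apoptosis had medians of -0.51, -0.39 and -0.08, and 2 of 6 tested were higher in RA-sufficient PL than in In/B, among them Naip1 (2.73), and 2 were lower, Xiap (-1.33) and Birc5 (-1.06). In RA-deficient PL 1 of 5 was higher and 1 lower than in In/B, and between the PL groups 2 of 6 were higher, among them Birc6 (1.01), and 1 was lower. The Sertoli cell marker sum was highest in RA-sufficient PL, as were, without overlap with the other groups, Tnfrsf1a, Cflar, Vdac1, Casp8, Naip1, Sesn1, Sesn2 and Ddit3, and its part in these results was not tested.

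For the 6 members that passed with over 2-fold in any comparison, the genes with the most similar levels over the 9 libraries were listed, by Pearson's r of log2(CPM + 1) among the 9697 or 9698 genes whose mean was 10 CPM or more, as a description in which the points share libraries and groups. Bax was most like Prdx1 (r = 0.999) and Fam220a (0.998), and Bid most like Bcas2 and Fpgs (both 0.997). Bcl2l2 was most like Esyt3 (0.988) and Sat2 (0.987), Bak1 most like Rpgrip1 (0.992) and Ldha (0.989), and Bcl2l11 most like Chpt1 (0.988) and Trim35 (0.987). For Bbc3 the closest genes, Hmgn2 (0.965) and Trpc4ap (0.946), were less similar.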

How the data were processed

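Uchl1-EGFP+ cells were sorted, and stranded poly(A) libraries were sequenced. The deposited table holds unnormalized counts per gene, which the authors made with cutadapt 1.9, STAR 2.5.2b on mm9 and featureCounts. The annotation and the strand setting are not given in the sources used here. All 9 count columns were assigned by name, and 0 were left unused. Replicates are described as independent cell preparations.

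Each pair of groups was fitted with edgeR 4.0.16 (R 4.3.3): TMM scaling, filterByExpr, quasi-likelihood test and Benjamini-Hochberg adjustment, passing below 0.05. SEs were derived from the F statistic. The fit was tested on simulated data. CPM used TMM over 9 libraries, and exon lengths and mm9 coordinates came from GENCODE M1. Sequences came from GENCODE M1 transcripts and RefSeq promoters (GRCm38.p6). Alternatives included RLE scaling, library size only, 2 filters, all libraries in 1 fit, a replicate block, DESeq2 1.42.0, stricter thresholds and leaving out each library.

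The members, gene lists and tests were chosen with earlier results of these data known. All members were named in all libraries, and of other lists at most the 2 highest and 2 lowest genes passing with over 2-fold per comparison, and of the most alike genes 2 per member passing with over 2-fold. Other neighbours, list members and antisense genes were named after their values were seen. Replicate numbers are not a known pairing of the samples. Some called genes of the caspase list are not reported here.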

Additional observations from a re-analysis of the deposited data

Results flagged for a closer look

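For 3 members the change from In/B differed between PL spermatocytes with and without RA, as tested directly between the PL groups by edgeR. Because both changes are measured from the same In/B libraries, the test of their difference is the comparison of RA-deficient with RA-sufficient PL. For Bcl2l2 the change from In/B was 2.01 on the log2 scale with RA and -0.76 without, and the tested difference, without RA minus with RA, was -2.89. For Bid the changes were -1.86 with RA and -0.57 without, and the tested difference was 1.17. For Bcl2l11 they were -0.30 with RA and -1.77 without, and the tested difference was -1.59. RA-deficient replicate 3 was the lowest of its group in all 3 genes. The Bid and Bcl2l11 calls were lost when any single RA-sufficient library was left out, and the Bcl2l2 call was kept. The part of Sertoli cells in the Bcl2l2 result and that of differentiating spermatogonia in the Bid result were not tested.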

How the results depend on the processing

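Over the 13 alternatives, Bcl2l2, Bax, Bid and Bak1 in RA-sufficient PL against In/B, Bax and Bcl2l11 in RA-deficient PL against In/B and Bcl2l2 between the PL groups passed each time. The number of members past the test in RA-sufficient PL against In/B, 5, was 4 to 6 in every alternative. In RA-deficient PL against In/B it was 4, and became 6 with all 9 libraries in 1 fit (Bcl2l2 and Bid being gained), 2 at an adjusted p of at most 0.01, 2 with over 2-fold and 2 to 6 when 1 library was left out (2 without In/B replicate 2). Between the PL groups it was 3, and became 5 with all 9 libraries in 1 fit, 5 with DESeq2, 1 at an adjusted p of at most 0.01 and 1 to 8 when 1 library was left out. Signs turned for values that had not passed: for Bcl2, leaving out RA-deficient replicate 1 or 2 gave 0.23 and 0.23 in RA-deficient PL against In/B and 0.45 and 0.45 between the PL groups, where it was 0.05 without RA-sufficient replicate 1. Its lowest values, -7.83 and -7.45 without RA-deficient replicate 3, are set against libraries at 0 and are no bounds. Mcl1 in RA-deficient PL against In/B was -0.14 with library size only, and Bak1 there ranged from -0.014 without RA-deficient replicate 3 to 0.82 without replicate 2. The cause of these changes was not tested. Of all member fold changes, 340 kept direction and side of the threshold, 19 gained a call, 20 lost one and 7 turned.

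Deviations of same-numbered libraries from their group means had correlations of -0.27 to 0.13. With 3 libraries per group these cannot exclude a pairing, and the replicate number is not a known pairing. With a replicate block the number of members past the test was 4, 3 and 3 in the 3 comparisons, the calls of Bbc3 (-2.22) and Bad (-0.99) being lost. Leaving Bcl2l2 out of the sum, an alternative chosen after seeing the data, gave an anti-apoptotic share of 33.3, 63.1 and 59.2%. With all members the share was 35.7, 68.9 and 62.3% with the length of the longest transcript. Leaving out 1 library, also chosen after seeing the data, gave 34.0 to 36.5%, 68.7 to 69.1% and 58.7 to 61.0%. Counts of Bcl2 and Bbc3 were too few for firm values.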
